A study of Oryza sativa with 6 samples.

Results

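The root transcriptome of the rice line OE20 was compared with that of the wild type (WT) under low nitrogen. OE20 is the weaker of the 2 *OsMYB305* overexpression lines sequenced. The comparison rests on 4 of the 6 libraries of the study, the 2 from OE20 and the 2 from the WT, and the 2 libraries of the stronger line OE15 show which changes OE20 did not share with it. Members were chosen by the sample titles. Locus names follow the MSU annotation as deposited.

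Both lines carry the *OsMYB305* coding sequence under the CaMV 35S promoter, which is active in most tissues, in the background of cultivar ZH11, and their seedlings had been selected with hygromycin. The WT was ZH11 without the construct. All 6 libraries came from roots supplied with 0.288 mM NH4NO3, which is the low-nitrogen level of the study. The labels give 14 days both as the age and as the time in an MS solution, whereas the methods describe older seedlings moved to Yoshida solution, so the age and the medium are uncertain. A line is one overexpression line, so an effect of where its construct lies in the genome cannot be told apart from an effect of *OsMYB305*. Nothing in the labels says whether the libraries of a genotype came from separate plants, so the p-values measure only the spread between these libraries.

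OsMYB305 is an R2R3-MYB transcription factor. The roots of rice take up nitrate at low supply through NRT2 transporters, which work together with the partner protein NAR2.1, and nitrite reductase and glutamate synthase act in the assimilation that follows. Secondary walls are built in the xylem and other thickened tissues of the root. They hold cellulose made by a complex of CESA proteins, xylan and mixed-linkage glucans, and lignin, whose monomers come from the phenylpropanoid pathway and are joined by laccases and peroxidases.

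The q-PCR primers of the study for *OsMYB305*, *OsNRT2.1* and *OsNRT2.2* follow. *OsMYB305* separates the lines from the WT, and *OsNRT2.1* and *OsNRT2.2* are close relatives whose reads could be split between them. The primers played no part in the FPKM values. They are written 5′ to 3′ in lower case.
OsMYB305 forward: cgaccaccacctcgaaat
OsMYB305 reverse: ccagaagccgtcattgaaac
OsNRT2.1 forward: ccttgttgcaaacggtgatg
OsNRT2.1 reverse: cctccgtttgtatcggagaaat
OsNRT2.2 forward: acgcctaattaagaggccaag
OsNRT2.2 reverse: cctttctccatgacgacatactc

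The transcript level of *OsMYB305* (LOC_Os01g45090), which lies on chromosome 1, was 81.3 and 80.2 FPKM in OE20. OE15 held 150.2 and 148 FPKM, and the WT 0.0388 and 0.0576 FPKM. FPKM is the number of fragments assigned to a transcript, scaled for transcript length and library size. The OE20 libraries stood far above the WT and at 0.541 of the OE15 mean, and no 2 genotypes overlapped. OE20 exceeded the WT by 9.09 on the log2(FPKM + 0.1) scale (standard error 0.073, limma adjusted p = 5.26e-09). It lay below OE15 by −0.89 (95% confidence interval −1.06 to −0.71). Of the 10 loci listed within 5 places of *OsMYB305*, 3 were expressed enough to be tested and 1 was called, which here means a limma adjusted p under 0.05 together with more than 1.5-fold change. This was LOC_Os01g45110, an anthocyanin 3-O-beta-glucosyltransferase, with 1.61 and 2.14 FPKM in OE20 against 5.82 and 6.39 FPKM in the WT.

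Because read totals are lost in FPKM, absolute depth is unknown. Relative depth, read from the spacing of the smallest values, was 0.985 to 1.36 of that of WT replicate 1, and 46.4% to 47.8% of loci were listed at 0 in a library. The Pearson correlation of log2 values over the loci tested was 0.984 to 0.988 within a genotype and 0.965 to 0.976 between genotypes, which describes libraries that share most of their genes. The root genes *OsNRT2.1* and *OsNAR2.1* were expressed in every library. Of 4 leaf and chloroplast markers none was at 0 in any library, and their summed level was 59.8 and 59.9 FPKM in OE20, with OE15 at 62.9 and 63.4 FPKM and the WT at 86.2 and 86.8 FPKM. In OE20, 1 of them was up-regulated and 2 were down-regulated, and the up-regulated one lost its call without either OE20 library or WT replicate 1. All 4 were taken from the study's list of loci changed in both lines, so their shift is not independent evidence on tissue content. Chloroplast genes outside that list were not examined. The shift of the 4 markers ran with genotype beside every gene group below, and its part in the results was not tested. In whole roots, fewer cells of a type and less RNA per cell cannot be told apart.

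Of 20627 loci that averaged 1 FPKM or more across the 6 libraries, 302 (1.46%) were up-regulated and 339 (1.64%) were down-regulated in OE20, together 641 (3.11%). The test was limma on log2(FPKM + 0.1), with Benjamini-Hochberg adjustment over all loci tested. The 4 libraries did not overlap at any of the 641 loci, as they did not at 55.9% of all loci tested. The median log2 difference of all loci tested was 0.016. Without WT replicate 2, 320 loci were called higher and 217 lower, and without WT replicate 1 the counts were 221 and 267.

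**Figure D1:**
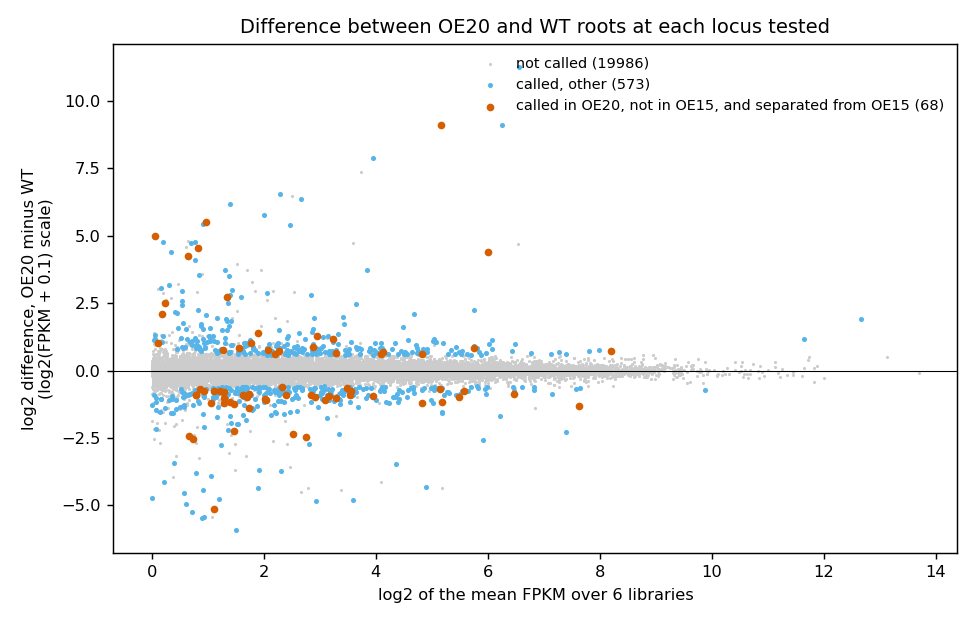
Difference between OE20 and WT roots (vertical axis, log2(FPKM + 0.1) scale) against the log2 mean FPKM over 6 libraries (horizontal axis), with 1 point per locus tested. Most of the 20627 loci lie close to 0, and the 68 loci called in OE20, not called in OE15 and separated from OE15 (orange) lie among the 641 called ones at all levels of expression.

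Among loci that the study annotates, the largest falls in OE20 were those of ubiquitin-related genes and of a glucosyltransferase. LOC_Os09g27930, a ubiquitin fusion protein, was at 1.06 and 1.21 FPKM in OE20 against 34.9 and 33.5 FPKM in the WT, a log2 difference of −4.80 (standard error 0.16, limma adjusted p = 1.77e-05). LOC_Os03g15370, also a ubiquitin fusion protein, was at 4.02 and 4.12 FPKM in OE20 against 86.8 and 79.9 FPKM in the WT (log2 difference −4.32). Ubiquitin fusion proteins are precursors that release ubiquitin, the small protein that marks others for degradation. LOC_Os07g43260, a SKP1-like protein 1B of the kind that links F-box proteins to ubiquitin ligases, had a log2 difference of −3.71 with 0.762 and 1.1 FPKM in OE20 against 13.8 and 12.8 FPKM in the WT. LOC_Os04g12970, a UDP-glucosyl transferase, fell to 0.134 and 0.0418 FPKM in OE20, against 4.08 and 4.25 FPKM in the WT. LOC_Os06g29220, annotated with an erythronate-4-phosphate dehydrogenase domain, fell to 0.21 and 0.344 FPKM in OE20, against 5.61 and 5.45 FPKM in the WT. In each of these the WT libraries were several times above the OE20 libraries. None of these falls was confined to OE20, as all were called in OE15 as well. The log2 differences of OE15 from the WT were −5.31, −5.15, −4.15, −3.78 and −3.41, in the order given.

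The largest annotated rises, apart from *OsMYB305*, included mobile elements and a stress regulator. LOC_Os11g17954, a transposon protein of the Pong sub-class, was at 2.15 and 2.52 FPKM in OE20 against 0.162 and 0.0683 FPKM in the WT (log2 difference 3.53, standard error 0.27, limma adjusted p = 0.000445). LOC_Os08g38800, a retrotransposon protein, was at 2.18 and 2.04 FPKM in OE20 against 0.134 and 0.241 FPKM in the WT. LOC_Os09g35010, a dehydration-responsive element-binding protein, a class of factor that acts in drought and cold responses, was at 4.68 and 4.65 FPKM in OE20 against 0.706 and 0.426 FPKM in the WT (log2 difference 2.87). LOC_Os10g41838, with an F-box interaction domain, was at 10.1 and 9.83 FPKM in OE20 against 1.5 and 1.22 FPKM in the WT. LOC_Os11g45990, with a von Willebrand factor type A domain, had a log2 difference of 2.59. The expression of all of these was low to moderate. Loci were ranked for the largest rises and falls only if their OE20 and WT libraries did not overlap, so that separation was fixed by the choice. All of these rises were called in OE15 as well, with log2 differences from the WT of 3.86, 2.94, 3.48, 2.84 and 2.84, in the order given.

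The largest differences of all were at loci without an annotation in the sources used here. LOC_Os03g02470 was at 244 FPKM in both OE20 libraries and reached 38.8 and 39 FPKM in OE15, and it was listed at 0 in both WT libraries. Its OE20 level was 6.27 times that of OE15. LOC_Os01g69890 was listed at 0 in both OE20 libraries, against 4.02 and 8.51 FPKM in the WT. LOC_Os01g43740 was at 0.0173 and 0.0378 FPKM in OE20 against 5.29 and 5.77 FPKM in the WT, and it was equally low in OE15. Of the 641 called loci, 12 were listed at 0 in both WT libraries and 5 in both OE20 libraries. Such zeros may be failed estimates, so no fold is given for these.

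The question posed for OE20 is which changes it did not share with OE15. OE20 differed from OE15 itself at 425 loci (2.06%), with 178 (0.863%) higher and 247 (1.2%) lower in OE20. OE15 against the WT gave 1134 calls (5.5%). Both lines are compared with the same WT libraries, and the OE20 libraries enter both of their own comparisons. Of the 641 loci called in OE20, 199 were not called in OE15, 87 of them higher and 112 lower. For 131 of those, OE20 was not separated from OE15 by the direct test, so a call in 1 line alone did not show a difference between the lines. The other 68 were separated from OE15 in the same direction, 26 higher and 42 lower in OE20. In 7 further loci the lines were called in opposite directions, 3 higher and 4 lower in OE20, and none of these is annotated.

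The counts of loci separating the lines depended on single libraries. Without OE20 replicate 1, 111 loci were called higher and 168 lower in OE20 than in OE15. Without OE15 replicate 1 the counts were 139 and 149, and without OE15 replicate 2 they were 146 and 137. Of the 68 loci, 37 remained without OE20 replicate 1 and 43 without OE15 replicate 1. The 7 loci called in opposite directions became 4 without OE20 replicate 2 and also 4 without WT replicate 1 or WT replicate 2.

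In the 26 loci that were higher in OE20 the median log2 difference from the WT was 1.03 in OE20 and −0.07 in OE15, and in the 42 lower loci it was −0.97 in OE20 and −0.01 in OE15. The rule fixes this contrast, so the medians are a description. Changes above 4-fold were found for 9 of the higher and 6 of the lower loci. Many of these loci were weakly expressed, with 37 of the 68 under a mean of 5 FPKM over the 6 libraries and 5 above 100 FPKM in an OE20 or WT library. In OE15, 6 of the 68 also passed the adjusted p in the same direction with a change under 1.5-fold, and 5 passed it in the other direction.

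**Figure D2:**
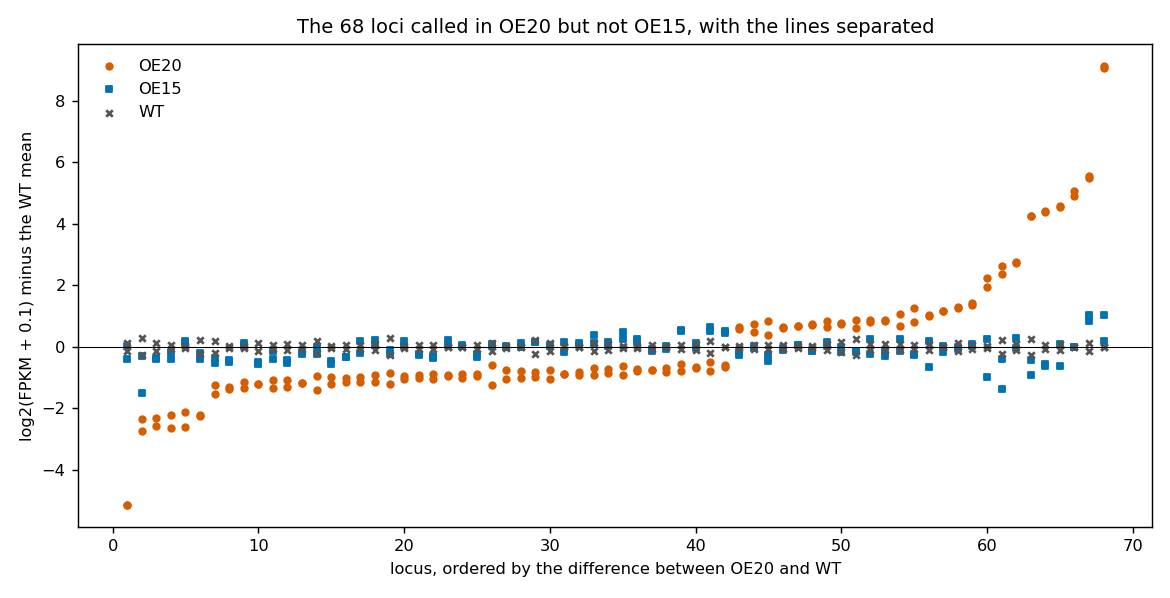
Values of log2(FPKM + 0.1) minus the WT mean (vertical axis) for the 68 loci, ordered by the difference between OE20 and WT (horizontal axis), with 2 points per genotype at each locus. The OE20 libraries (circles) lie away from 0 at every locus, from −5.14 to 9.11 as differences of the means, while most OE15 libraries (squares) lie near the WT libraries (crosses).

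The 68 loci, of 20627 tested, were spread over all 12 chromosomes. Chromosome 10 held 9 of them among 1053 loci tested (0.855%), and chromosome 4 held 9 among 1781 (0.505%). Chromosome 10 also had the highest share of all loci called in OE20 against the WT, 4.94% against 3.11% over all loci tested. Chromosome 2 held 2 among 2425 (0.0825%). Together with the 7 loci of opposite direction, 17 of 75 lay within 5 listed places of another one, in 8 groups of neighbours. In 6 of these groups the neighbours moved the same way in OE20, and in the other 2 they did not. How often other loci lie this close was not counted.

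Of the 68 loci, 4 are on the study's list of 462 annotated loci, and all 4 were lower in OE20. That list was drawn by the study from these libraries for change in both lines, so it holds few loci of this kind by construction. LOC_Os10g18760, a dirigent protein, was the most abundant of the 4. Dirigent proteins guide the coupling of phenolic radicals in lignan formation. It was at 113 and 109 FPKM in OE20, with OE15 at 199.8 and 207 FPKM and the WT at 286 and 271 FPKM. The OE20 libraries were the lowest, the OE15 libraries stood between, and no genotypes overlapped. The difference of OE20 from the WT was −1.32 (standard error 0.04, limma adjusted p = 8.87e-06), a 2.5-fold lower level, and that of OE15 was −0.45. OE20 was lower than OE15 by −0.87 (95% confidence interval −0.97 to −0.78, adjusted p = 0.000108).

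LOC_Os11g37940, the wound-induced protein WIP2, was at 18.6 and 16.1 FPKM in OE20, with OE15 at 29.2 and 27.8 FPKM and the WT at 37 and 42.3 FPKM. Its level in OE20 was 2.29 times lower than in the WT, with OE15 again between (log2 difference −1.19 in OE20 and −0.47 in OE15). OE20 differed from OE15 by −0.72 (95% confidence interval −0.93 to −0.51, limma adjusted p = 0.00392). LOC_Os11g37960, the related WIP4, was chosen after its values were seen. It had a log2 difference of 0.42 in OE20 (limma adjusted p = 0.00135), below the fold limit, and was not called. In OE15 its difference was 0.95, and the direct test did not call it between the lines.

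LOC_Os08g08960, a cupin domain protein, was at 5.02 and 5.87 FPKM in OE20, with OE15 at 8.01 and 8.58 FPKM and the WT at 11.6 and 11.9 FPKM. Its log2 difference was −1.10 in OE20 and −0.50 in OE15, and the lines differed by −0.60 (95% confidence interval −0.82 to −0.39, limma adjusted p = 0.009). It did not meet the rule without OE20 replicate 1, without OE15 replicate 2, with a pseudocount of 1 or after quantile normalization. LOC_Os07g01890, an expressed protein of unknown role, was at 1.44 and 1.43 FPKM in OE20, with OE15 at 2.35 and 2.42 FPKM and the WT at 3.8 and 3.16 FPKM. It did not meet the rule when either OE20 library or either OE15 library was left out, with a pseudocount of 1 or with no minimum level.

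All 4 annotated loci were also lower in OE15 than in the WT at an adjusted p under 0.05, and none of those 4 differences reached 1.5-fold. For them the lines thus differed in the size of the fall. LOC_Os11g31540, a brassinosteroid-insensitive 1-associated receptor kinase, of the family of co-receptors for steroid and immune signals, had the same order of levels but was called in both lines. It was at 16.9 and 19.9 FPKM in OE20, with OE15 at 36.1 and 35.8 FPKM and the WT at 56.1 and 54.3 FPKM. The log2 difference was −1.58 in OE20 and −0.62 in OE15, and OE20 lay below OE15 by −0.97 (95% confidence interval −1.14 to −0.80, limma adjusted p = 0.000676).

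**Figure D3:**
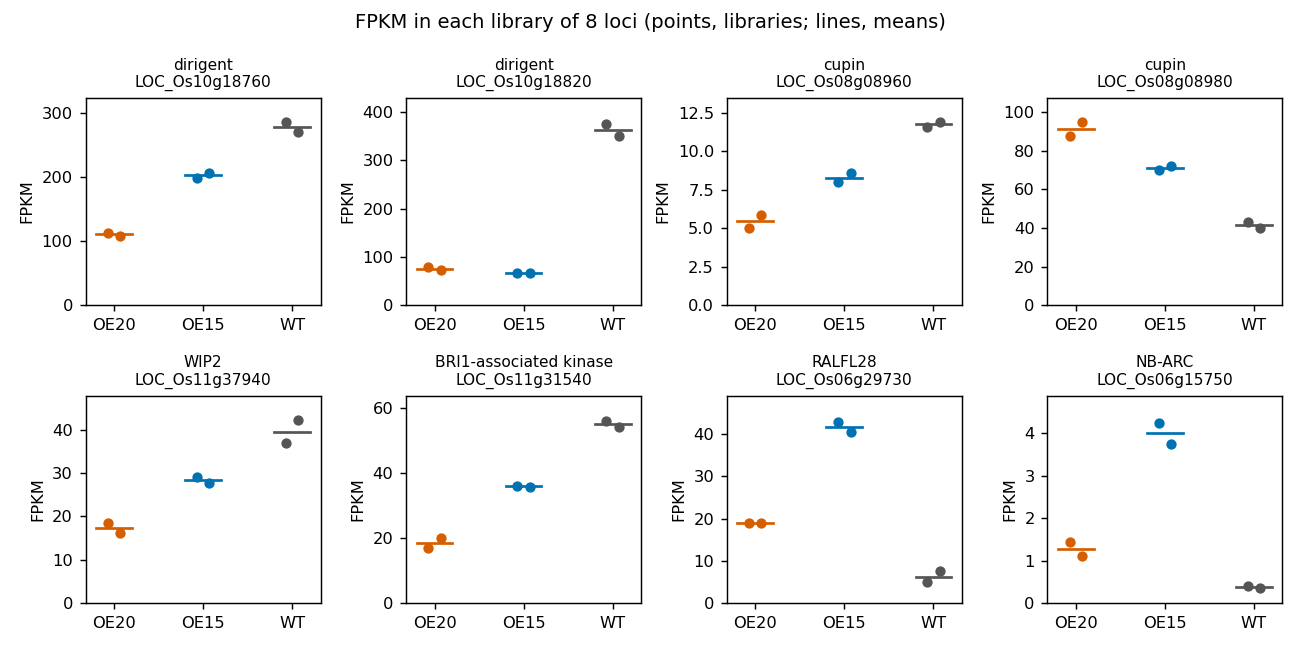
FPKM (vertical axes, from 0) of 8 annotated loci in each library of OE20, OE15 and WT, with points for libraries and lines for the means of 2 libraries. The dirigent gene LOC_Os10g18760, the cupin LOC_Os08g08960, WIP2 and the BRI1-associated kinase are lowest in OE20, whereas RALFL28 and the NB-ARC gene are highest in OE15, at 42.8 and 40.6 FPKM for RALFL28.

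The largest changes called in OE20 and not in OE15 were in unannotated loci. LOC_Os03g18779 was at 109 and 105 FPKM in OE20, with OE15 at 0.123 and 0.301 FPKM and the WT at 0.0939 and 0.0927 FPKM. Both OE20 libraries were thus above 100 FPKM while the other 4 stood at 0.301 FPKM or less, and OE20 exceeded OE15 by 8.48 on the log2(FPKM + 0.1) scale (limma adjusted p = 2.24e-05). Without OE15 replicate 1 it was also called in OE15 and did not meet the rule. LOC_Os01g36850 was at 5.88 and 5.55 FPKM in OE20, with OE15 at 0.127 and 0.162 FPKM and the WT at 0.0397 and 0.0146 FPKM, with a difference of 4.58 between the lines. It did not meet the rule when limma was run without a trend. LOC_Os01g50070 was listed at 0 in both OE20 libraries, with OE15 at 3.49 and 2.58 FPKM and the WT at 3.74 and 3.12 FPKM. LOC_Os07g03610 was at 0.346 and 0.495 FPKM in OE20, with OE15 at 0.958 and 2.32 FPKM and the WT at 2.37 and 3.52 FPKM, and leaving out any one library other than OE15 replicate 1 ended its status, as did a pseudocount of 1, no minimum level, separate fits and no trend.

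Where OE20 and OE15 were separated and OE20 was called against the WT, OE20 lay beyond OE15 in the direction of its own change at 87 loci. These include the 7 loci of opposite direction, and at some of those OE20 was nearer to the WT than OE15 was. At 30 loci, called in both lines in the same direction, OE20 stood nearer to the WT. Loci enter this count through their call in OE20, which favours large changes in that line. Among the annotated loci the balance was the other way, with 7 further from the WT and 21 nearer to it. The study chose these for change in both lines, which leaves out most changes of OE20 alone, so this balance is only a description. RALFL28 and an NB-ARC gene were among the 21. LOC_Os06g29730 encodes RALFL28, of the rapid alkalinization factor family, secreted peptides that are read by FERONIA-type receptor kinases in Arabidopsis. It was at 18.9 FPKM in both OE20 libraries, with OE15 at 42.8 and 40.6 FPKM and the WT at 5.01 and 7.51 FPKM, and OE20 lay below OE15 by −1.14 (95% confidence interval −1.52 to −0.76). LOC_Os06g15750, with the NB-ARC domain of plant immune receptors, was at 1.43 and 1.1 FPKM in OE20, with OE15 at 4.25 and 3.76 FPKM and the WT at 0.39 and 0.343 FPKM. It lay below OE15 by −1.60 (95% confidence interval −2.09 to −1.10, limma adjusted p = 0.00525). In both the OE20 libraries were above the WT libraries and below those of OE15.

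Of the 462 listed loci 449 were tested, and 330 of them were called in OE20. The other 311 loci called in OE20 are not on the list. Counts by function can therefore be given only for annotated loci, and because the study chose these on the same libraries, their directions are not independent evidence. The called share of the listed loci tested was 73.5% and their median log2 difference was −0.41, against 3.11% and 0.016 over all loci tested. The word lists used here group listed loci by annotation, so a list above 3.11% is no result in itself.

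High-affinity nitrate genes stood above the WT in OE20 by less than 1.5-fold. *OsNAR2.1* (LOC_Os02g38230) was at 127 and 125 FPKM in OE20 against 86.1 and 91.4 FPKM in the WT, a difference of 0.51 (standard error 0.039, limma adjusted p = 0.000454). *OsNRT2.1* (LOC_Os02g02170) was at 8.1 and 7.75 FPKM in OE20 against 5.81 and 6.07 FPKM in the WT (log2 difference 0.41, adjusted p = 0.0157). *OsNRT2.2* (LOC_Os02g02190) was at 11.3 FPKM in both OE20 libraries against 8.29 and 8.95 FPKM in the WT (log2 difference 0.39, adjusted p = 0.0107). The OE20 libraries were above the WT libraries in all 3 genes. At 55.9% of all loci tested these libraries did not overlap, so this order is no result in itself.

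*OsNIR2* (LOC_Os01g25484), a nitrite reductase, was at 821 and 858 FPKM in OE20 against 791 and 918 FPKM in the WT, and these ranges overlapped (log2 difference −0.02, limma adjusted p = 0.869). LOC_Os05g48200, a chloroplast-type glutamate synthase, was the only one of the 8 nitrogen genes listed that was called, at 40.4 FPKM in both OE20 libraries against 66.8 and 71 FPKM in the WT (log2 difference −0.77, adjusted p = 0.000125). Another 6 of the 8 passed the adjusted p below the fold limit, among them an early nodulin 93 protein (LOC_Os06g05000) and a urea active transporter (LOC_Os10g42960), each at 0.52. OE20 and OE15 differed at *OsNRT2.1* by −0.26 (95% confidence interval −0.44 to −0.09, adjusted p = 0.0661) and at *OsNAR2.1* by 0.02 (95% confidence interval −0.07 to 0.11).

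Of 8 genes tested from the list named secondary wall cellulose, 4 were down-regulated in OE20, 4 had no call and none was up-regulated, with a median of −0.57. The list reaches beyond cellulose synthases, and the falls were those of *OsCESA9*, *OsCESA7*, *OsCSLF8* and a PMR5 gene. Without OE20 replicate 1 the count of falls was 2. *OsCESA9* (LOC_Os09g25490) was at 42.6 and 41.2 FPKM in OE20 against 67.8 and 74.7 FPKM in the WT (log2 difference −0.76, standard error 0.052, limma adjusted p = 0.000288). *OsCESA7* (LOC_Os10g32980) was at 49 and 51 FPKM in OE20 against 72.2 and 78.1 FPKM in the WT, and its difference of −0.59 stood just past the limit of 1.5-fold. It lost its call without OE20 replicate 1 (−0.56), without WT replicate 2 (−0.53) and with a pseudocount of 1 (−0.58). *OsCESA4* (LOC_Os01g54620) was at 46.1 and 46.9 FPKM in OE20 against 67.9 and 69.5 FPKM in the WT, and its difference of −0.56 stood just short of that limit, but after quantile normalization it was −0.59 and called. These 3 encode the subunits of the cellulose synthase complex of rice secondary walls. In each the OE20 and WT libraries did not overlap, as they did not at 55.9% of all loci tested.

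*OsCSLF8* (LOC_Os07g36630), of the family that makes mixed-linkage glucan, was at 2.72 and 2.61 FPKM in OE20 against 4.78 and 4.21 FPKM in the WT (log2 difference −0.73). Its limma adjusted p of 0.0113 became 0.0576 without OE20 replicate 1, 0.0665 without OE20 replicate 2 and 0.0749 without WT replicate 1. With a pseudocount of 1 its difference was −0.58 and not called. LOC_Os05g28830, annotated as PMR5, a family involved in wall polymer modification, was at 2.65 and 2.86 FPKM in OE20 against 6.07 and 6.42 FPKM in the WT. *OsBC1* (LOC_Os03g30250), a COBRA-like protein needed for cellulose assembly, had a difference of −0.48, and *OsGH9A3* (LOC_Os03g52630), an endoglucanase, one of −0.46. Both passed the adjusted p but not the fold limit. *OsCSLE6* (LOC_Os09g30130) was at 2.1 and 1.68 FPKM in OE20 against 2.76 and 2.72 FPKM in the WT (adjusted p = 0.0901). *OsBC1* was higher in OE20 than in OE15 by 0.35 (95% confidence interval 0.23 to 0.47, adjusted p = 0.00742), and the corresponding difference at *OsCESA4* was 0.22 (95% confidence interval 0.14 to 0.31).

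**Figure D4:**
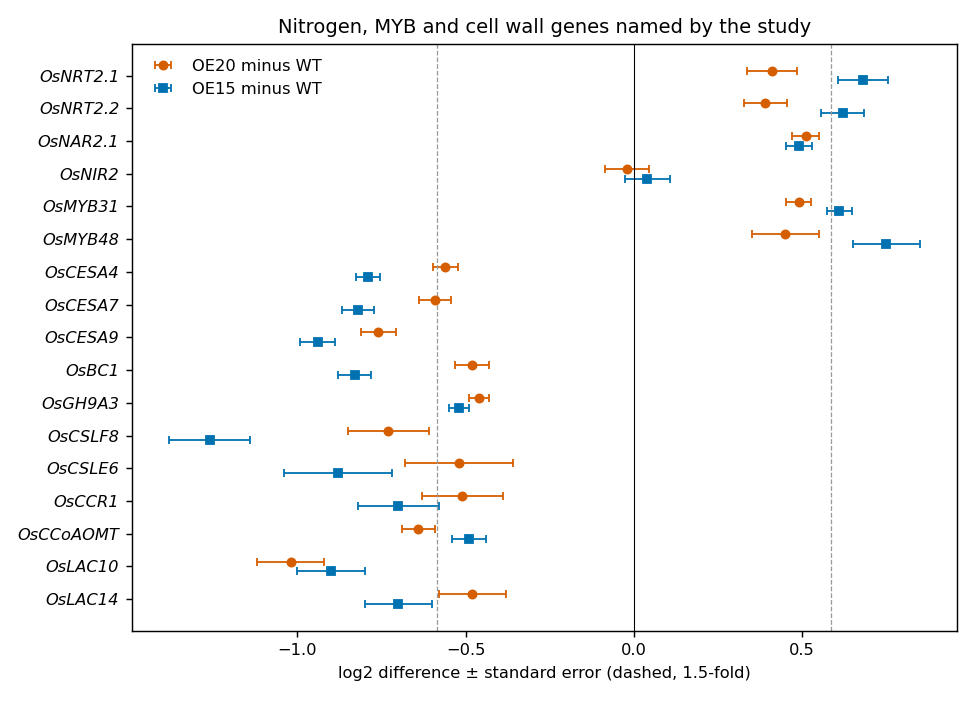
Log2 differences from the WT (horizontal axis, bars are standard errors, dashed lines mark 1.5-fold) of 17 genes named by the study, for OE20 (circles) and OE15 (squares). The nitrate transport genes and the regulators *OsMYB31* and *OsMYB48* lie right of 0, the wall enzymes and *OsBC1* lie left of it, *OsNIR2* lies close to 0, and *OsCSLF8* shows a difference of −0.73 in OE20.

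Lignin and phenolic coupling genes were down-regulated in 11 of 14 cases and up-regulated in none (median −0.86), although 1 was called higher without WT replicate 2. The largest falls were those of dirigent genes. LOC_Os10g18870 was at 4.58 and 4.64 FPKM in OE20 against 53.5 and 49.6 FPKM in the WT (log2 difference −3.45, standard error 0.065, limma adjusted p = 5.89e-07). LOC_Os10g18820 was at 79 and 72.1 FPKM in OE20 against 375 and 351 FPKM in the WT (log2 difference −2.26). Both lie on chromosome 10 close to LOC_Os10g18760, and how reads that map to several copies were assigned is not given in the sources used here. At LOC_Os10g18820 OE20 and OE15 differed by 0.18 (95% confidence interval 0.05 to 0.30, adjusted p = 0.078), in contrast to the −0.87 of its neighbour. LOC_Os12g26380, a dirigent gene on chromosome 12, had a difference of −1.51.

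LOC_Os06g24180, a cytochrome P450 84A1, the class that in Arabidopsis makes syringyl lignin precursors, was at 1.57 and 1.78 FPKM in OE20 against 6.1 and 6.16 FPKM in the WT (log2 difference −1.81). *OsLAC10* (LOC_Os03g16610), a laccase, was at 4.17 and 4.67 FPKM in OE20 against 8.6 and 9.48 FPKM in the WT (log2 difference −1.02), and *OsLAC14* (LOC_Os07g01110) had −0.48 without a call. *OsCCoAOMT* (LOC_Os08g38910), a methyltransferase of monolignol synthesis, was at 20.8 and 19.8 FPKM in OE20 against 31.5 and 31.8 FPKM in the WT (log2 difference −0.64). *OsCCR1* (LOC_Os01g18110), a cinnamoyl CoA reductase of the same pathway, was at 5.37 and 6.8 FPKM in OE20 against 8.26 and 9.08 FPKM in the WT. Its difference of −0.51 had a limma adjusted p of 0.0362 and was not called, and without OE20 replicate 2 it was −0.68 and called.

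Structural and wall-loosening proteins were down-regulated in 9 of 11 cases and up-regulated in none (median −0.85). The 4 largest falls were neighbouring glycine-rich cell wall protein genes of chromosome 10. LOC_Os10g31540 was at 16.9 and 13.4 FPKM in OE20 against 34.4 and 34.1 FPKM in the WT (log2 difference −1.18). LOC_Os10g31510, LOC_Os10g31690 and LOC_Os10g31620 had differences of −1.07, −1.06 and −0.96. Peroxidases were down-regulated in 5 of 8 cases and up-regulated in 1. The exception, LOC_Os06g35480, was at 107 and 104 FPKM in OE20 against 54.3 and 52.6 FPKM in the WT. LOC_Os01g73200, a weakly expressed peroxidase, had a difference of −1.60.

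The 2 regulators of wall synthesis named by the study did not pass the fold limit in OE20. *OsMYB31* (LOC_Os09g36730) was at 72.4 and 70.5 FPKM in OE20 against 51.7 and 50.1 FPKM in the WT (log2 difference 0.49, limma adjusted p = 0.000435). *OsMYB48* (LOC_Os01g74410) was at 282 and 317 FPKM in OE20 against 196 and 245 FPKM in the WT (log2 difference 0.45, adjusted p = 0.0351). Without WT replicate 2 the difference of *OsMYB48* was 0.61 and was called.

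Of 6 cupin genes 5 were up-regulated and 1, LOC_Os08g08960, was down-regulated. LOC_Os08g09080 was at 39.9 and 41 FPKM in OE20 against 18.6 and 17.5 FPKM in the WT (log2 difference 1.16), and LOC_Os08g08980 was at 87.5 and 94.8 FPKM in OE20 against 42.9 and 40 FPKM in the WT (log2 difference 1.13). LOC_Os08g09060 had a difference of 0.81. The chromosome 8 genes are close in order, so the fall of LOC_Os08g08960 stood beside rises of its neighbours.

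**Figure D5:**
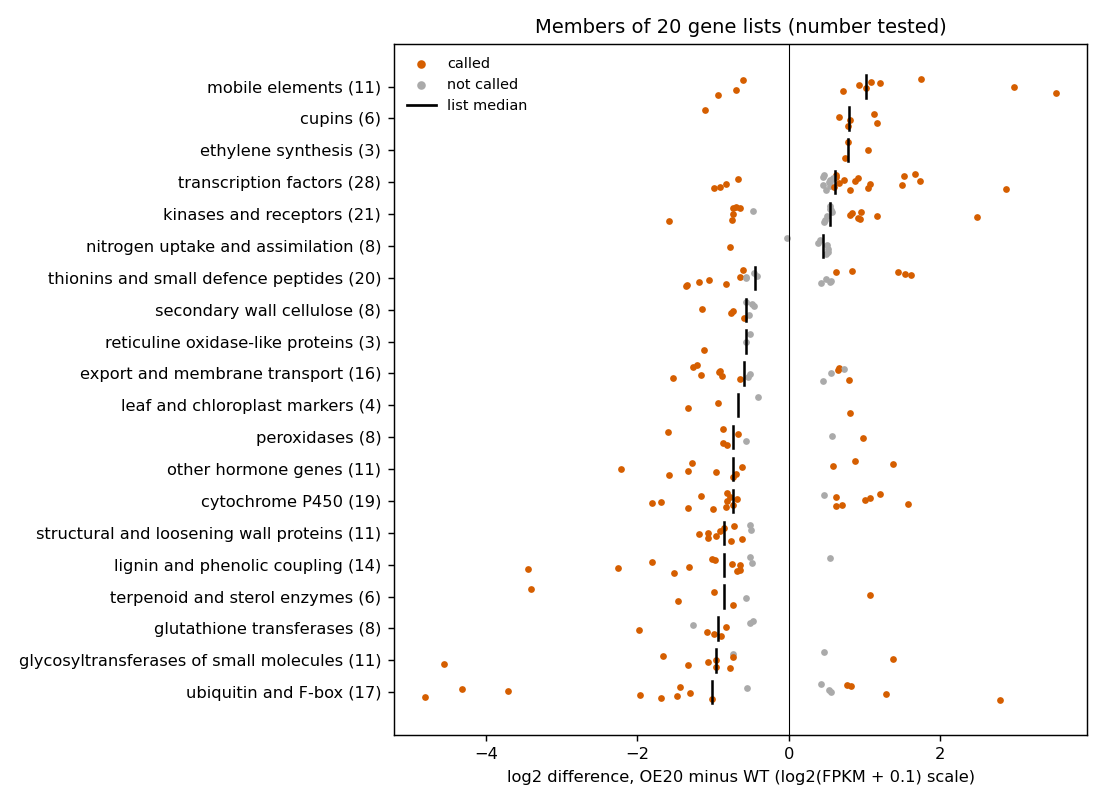
Log2 difference between OE20 and WT (horizontal axis) of each tested member of 20 gene lists (rows, with the number tested), with called members in orange, others in grey and the list median as a black bar. The medians run from 1.02 for mobile elements to −1.02 for ubiquitin and F-box genes, and the medians of the wall lists lie left of 0.

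Cytochrome P450 genes were split, with 7 up-regulated and 11 down-regulated of 19 (median −0.74), and without OE20 replicate 2 only 6 of the falls were called. Glutathione transferases were down-regulated in 5 of 8 cases and up-regulated in none, and LOC_Os09g20220 was at 1.48 and 1.53 FPKM in OE20 against 6.23 and 6.27 FPKM in the WT (log2 difference −1.98). These enzymes attach glutathione to reactive compounds. Glycosyltransferases of small molecules were down-regulated in 8 of 11 cases and up-regulated in 1, with 4 falls left without WT replicate 1 and 5 when WT replicate 2 or either OE20 library was left out. Terpenoid and sterol enzymes were down-regulated in 4 of 6 cases and up-regulated in 1, with 2 falls called without OE20 replicate 1, WT replicate 1 or WT replicate 2. Of reticuline oxidase-like genes, 1 of 3 was down-regulated (LOC_Os06g35700, −1.12), and all 3 were called without WT replicate 1.

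Within the terpenoid list, LOC_Os01g38580, a beta,beta-carotene 9,10-dioxygenase of carotenoid cleavage, was at 0.166 and 0.299 FPKM in OE20 against 3.2 and 3.54 FPKM in the WT (log2 difference −3.41, standard error 0.31, limma adjusted p = 0.000908). LOC_Os06g28820, a cycloartenol synthase, which makes the first precursor of plant sterols, was at 2.15 and 2.28 FPKM in OE20 against 6.13 and 6.42 FPKM in the WT (log2 difference −1.46). The single rise, LOC_Os02g21810, a cytochrome P450 51 of sterol demethylation, was at 1.75 and 1.24 FPKM in OE20 against 0.786 and 0.536 FPKM in the WT. Its limma adjusted p was 0.0358, and it lost its call when any one library other than WT replicate 1 was left out, with adjusted p of 0.159 without OE20 replicate 1. It also lost its call with a pseudocount of 1, no minimum level, separate fits and no trend.

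Hormone genes changed in both directions. The 3 ACC oxidase genes on the study's list were all up-regulated. Such genes carry out the last step of ethylene synthesis, and any that are not on the list could not be searched for by name. LOC_Os05g05680 was at 34.6 and 36.1 FPKM in OE20 against 16.5 and 17.5 FPKM in the WT (log2 difference 1.05, standard error 0.053, limma adjusted p = 9.19e-05). The other two, LOC_Os05g05670 and LOC_Os11g08380, had differences of 0.78 and 0.75. Of 11 other hormone genes, 3 were up-regulated and 8 were down-regulated. LOC_Os03g57640, annotated as the gibberellin receptor GID1L2, was at 1.07 and 1.29 FPKM in OE20, with OE15 at 0.635 and 0.648 FPKM and the WT at 6.49 and 5.23 FPKM. It was lower in OE20 than in the WT by −2.22, and higher than in OE15 by 0.78 (95% confidence interval 0.35 to 1.21). Among cytokinin-O-glucosyltransferase 2 genes, which store cytokinin as glucosides, LOC_Os02g51930 rose by 1.38 and LOC_Os04g25370 fell by 1.33 on the log2 scale.

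Transcription factors were up-regulated in 15 of 28 cases and down-regulated in 4 (median 0.61), and the other 9 passed the adjusted p below the fold limit. Leaving out any one OE20 or WT library left 2 of the 4 falls called. After the dehydration-responsive factor named above, the largest rise was that of LOC_Os03g08310, a ZIM domain protein, the domain found in repressors of jasmonate signalling. It was at 2.91 and 2.05 FPKM in OE20 against 0.735 and 0.606 FPKM in the WT (log2 difference 1.73, limma adjusted p = 0.00352). LOC_Os01g19330, a MYB factor, was at 1.75 and 1.68 FPKM in OE20 against 0.306 and 0.708 FPKM in the WT (adjusted p = 0.018). Its adjusted p was 0.0965 without OE20 replicate 1, 0.0876 without OE20 replicate 2, 0.0846 with no minimum level and 0.0581 without a trend. LOC_Os01g72370, a helix-loop-helix factor, had a difference of 1.52.

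Kinases and receptors were up-regulated in 7 of 21 cases and down-regulated in 6. Without OE20 replicate 2 the rises numbered 3, and without OE20 replicate 1 or WT replicate 2 the falls numbered 3. LOC_Os09g17630, a receptor-like protein kinase 2, was at 3.33 FPKM in both OE20 libraries against 0.502 and 0.517 FPKM in the WT (log2 difference 2.49, standard error 0.14, limma adjusted p = 0.000136). Thionins and other defence genes were up-regulated in 5 of 20 cases and down-regulated in 7, and the other 8 passed the adjusted p below the fold limit. Besides RALFL28 and the NB-ARC gene, LOC_Os01g64470, a harpin-induced protein, rose and was at 9.92 and 8.21 FPKM in OE20 against 3.61 and 2.96 FPKM in the WT. Defence genes held 5 of the annotated loci at which the lines differed, 1 further from the WT in OE20 (WIP2) and 4 nearer to it. One of the nearer genes, RALFL26 (LOC_Os10g41980), was not called in OE20 against the WT (log2 difference 0.56). Over all loci tested 2.06% were called between the lines. The study chose the listed loci for change in both lines, so this count is only a description.

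Ubiquitin and F-box genes were down-regulated in 9 of 17 cases and up-regulated in 4, of which 2 were called without either OE20 library or WT replicate 2. Export and membrane transport genes were down-regulated in 8 of 16 cases and up-regulated in 3, and 4 falls were called without OE20 replicate 1, WT replicate 1 or WT replicate 2, and 5 without OE20 replicate 2. LOC_Os08g43654, a MATE efflux protein, was at 3.09 and 3.41 FPKM in OE20 against 9.55 and 9.58 FPKM in the WT (log2 difference −1.53). LOC_Os01g42110, of the MtN3 family, whose members include sugar transporters, was at 23.5 and 22.5 FPKM in OE20 against 56.8 and 49.8 FPKM in the WT (log2 difference −1.21). Mobile elements were up-regulated in 8 of 11 cases and down-regulated in 3, and LOC_Os01g09220, a CACTA transposon protein, was at 12 and 13.5 FPKM in OE20 against 3.5 and 3.97 FPKM in the WT.

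The direct comparison of the lines set most of these groups side by side without separating them. No member of the lists of nitrogen, cellulose, structural wall, peroxidase, P450, glutathione transferase, glycosyltransferase, terpenoid, transport or mobile element genes was called between OE20 and OE15. Over all loci tested only 2.06% were called between the lines, so few calls would fall in lists this short. Most members were also chosen by the study for change in both lines, so the likeness of the lines here is no result in itself. The interval still allows a difference at single genes, as at *OsCSLF8*, which was 0.53 higher in OE20 than in OE15 (95% confidence interval 0.24 to 0.81, limma adjusted p = 0.0372) below the fold limit.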

How the data were processed

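RNA-seq was carried out on roots of OE20, OE15 and the WT, with 2 libraries each. Per the labels, the authors used FastQC 0.11.8, Trimmomatic 0.38, HISAT2 2.1.0 and Cufflinks 2.2.1, and they deposited FPKM, which is divided by transcript length and mapped fragments. The genome build, annotation release, strand setting and treatment of multiply mapping reads are not given in the sources used here, so values of near-identical, overlapping or antisense genes remain uncertain. Names and annotations were taken from the study's gene tables, and no coordinates were used.

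Repeated names (4) were dropped, which left 55982 loci, and the 20627 that averaged 1 FPKM or more were tested. limma 3.58.1 in R 4.3.3 was run on log2(FPKM + 0.1) with a trend, in 1 fit of the 3 genotypes (3 residual degrees of freedom), with Benjamini-Hochberg adjustment. Changes of weakly expressed genes appear too small on this scale. Calls needed an adjusted p under 0.05 and more than 1.5-fold. In data simulated for OE20 against WT, 72 of 100 loci with a log2 change of 1 and 96 of 100 with one of 2 were called. Among the unchanged loci of the 20627 simulated there was 1 false call. The simulated noise was normal and independent between libraries, and OE15 was set equal to the WT. Effects of plant, batch or line were left out, so the rate of false calls in the real data cannot be read from it. Count-based tests do not apply to these values.

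The members, gene lists and tests were chosen with earlier results of these data known. Named genes were those the study names, the 5 largest annotated rises and falls, annotated loci called in OE20 that were not called in OE15 and differed from it, or were called in the opposite direction, up to 4 members per list with the largest change, and at most 2 unannotated loci per direction. The largest rises and falls were taken from called loci whose OE20 and WT libraries did not overlap. Alternatives were 2 other pseudocounts, other minimum levels, quantile and median-ratio scaling, a replicate block, separate fits, no trend, other limits and each library left out.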

Additional observations from a re-analysis of the deposited data

Results flagged for a closer look

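Comparing both lines with the WT and with each other picked out 68 loci called in OE20, not called in OE15 and differing between the lines. A further 7 loci were called in opposite directions against the WT. The 68 rest on the calls against the WT and on a limma test between the lines. The 7 were singled out by their calls against the WT alone. Among them, OE20 minus OE15 was 8.48 at LOC_Os03g18779 and 4.58 at LOC_Os01g36850, both at 0.301 FPKM or less in the OE15 libraries. It was −4.96 at LOC_Os01g50070, which was listed at 0 in both OE20 libraries, so this value depends on the pseudocount. It was −1.63 at LOC_Os07g03610, −0.87 at the dirigent gene LOC_Os10g18760, −0.72 at WIP2 (LOC_Os11g37940), −0.70 at LOC_Os07g01890 and −0.60 at the cupin LOC_Os08g08960. With 2 libraries per line these are candidates for measurement in further plants and in the other overexpression lines. Causes were not tested.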

How the results depend on the processing

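Under pseudocounts of 1 and 0.01, both scalings, separate fits of the 4 libraries and no trend, the counts of calls stayed within 1.5 times those given. With a minimum mean of 5 FPKM, 168 loci were higher and 168 lower in OE20 than in the WT, 94 higher and 139 lower than in OE15, 12 higher and 22 lower were called in OE20, not called in OE15 and separated from it, and 2 had opposite directions. With no minimum, 66 higher loci were separated in this way and 4 had opposite directions. An adjusted p under 0.01 gave 183 higher and 210 lower loci against the WT, 105 and 140 against OE15, 27 lower separated loci and 2 of opposite directions. With no limit on the fold, 1321 loci were higher and 1128 lower than in the WT, 1263 higher and 1124 lower than in OE15, 190 higher and 154 lower were separated, and 68 had opposite directions.

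Leaving out each library in turn gave 203 to 320 higher and 217 to 325 lower loci against the WT, 111 to 173 higher and 137 to 250 lower loci against OE15, 19 to 28 higher and 28 to 51 lower separated loci, and 4 to 9 loci of opposite directions. The replicate block gave 297 higher and 333 lower loci against the WT and 28 higher and 50 lower separated loci. Deviations of same-numbered libraries correlated by −0.069 to 0.031, so no pairing by replicate number was seen. The study does not say whether such libraries were paired, and 2 libraries per genotype cannot settle it. Of 1659 values of 100 named loci under 17 alternatives, 1283 kept their call, 281 stayed without one, 72 lost and 23 gained one, and none of the calls changed direction. Low FPKM and 2 libraries per genotype limit the precision, and the causes of these shifts were not tested.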
